A study of Mus musculus with 5 samples.

Results

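Phagocytosis receptors, their signalling adaptors and the molecules that bridge them to their cargo were followed across primary mouse astrocyte cultures given amyloid-β (Aβ), with or without DFMO. The set has 10 genes, taken by symbol from the 18783 genes of the authors' deposited table, and all 10 were found there: Axl, Mertk, Mfge8, Megf10, Trem2, Tyrobp, Fcer1g, Itgam, Msr1 and Cd68. The cultures came from newborn (P0-P1) C57BL/6 pups and were harvested at day 12 in vitro. The Aβ+DFMO group (1 library) received 1 µM Aβ with 50 µM DFMO for 5 days from day 7 in vitro, the Aβ group (2 libraries) received 1 µM Aβ alone for the same 5 days, and the Control group (2 libraries) is labelled naive. DFMO (difluoromethylornithine) irreversibly blocks ornithine decarboxylase, the enzyme that makes putrescine. Whether libraries of the same group were separate cultures is not in the labels, so the p-values measure a spread between libraries that may be technical.

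A cell engulfs debris, dying cells or protein aggregates by a relay of proteins. Bridging molecules such as MFGE8 coat phosphatidylserine on the cargo and hand it to integrins. The receptor tyrosine kinases AXL and MERTK bind phosphatidylserine through GAS6, and MERTK also through protein S. TREM2, Fc receptors and integrins signal through small adaptors with an immunoreceptor tyrosine-based activation motif (ITAM), and the cargo ends in lysosomes. In the brain most of these proteins are known from microglia, the resident macrophages, whereas MEGF10 and MERTK are also used by astrocytes to take up synapses.

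Values per gene were available as normalized group means, so no spread between libraries could be computed from them. Sequencing depth was 4825677 reads for the Aβ+DFMO library, against 46886111 to 105544237 reads for the other 4 libraries. The normalized signal of each of the 10 genes in the Aβ+DFMO library was a whole multiple, within 0.05 of a read, of 7.45 units, which was taken as the worth of 1 read. These multiples, which run from 90 (Trem2) to 743 (Axl), give the 95% exact Poisson intervals quoted for that library, which cover counting error only. The astrocyte label was checked on 12 markers, all measured: Gfap averaged 41383 units in Aβ+DFMO, 57495 in Aβ and 57209 in Control, and Gjb6 was the one near 0, at 29.8, 7.89 and 9.86. All 18 microglia and macrophage markers were measured too, so the cultures also held RNA of that lineage. In bulk RNA, fewer cells of a type and less RNA per cell cannot be told apart, and this holds for every myeloid gene below.

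With Aβ alone a single gene of the set, Mfge8, was higher than in Control, and with DFMO added Cd68, Mfge8, Trem2 and Msr1 were lower than in Aβ. The threshold for a call was 0.05 on the adjusted p of the authors' deposited DESeq2 table. In Aβ against Control, 1 of the 10 genes rose, none fell and 9 did not pass, where 0.287% of all genes were called, 0.112% as higher. In Aβ+DFMO against Aβ, 4 of the 10 fell, none rose and 6 did not pass, where 9.18% of all genes were called and 5.18% were lower. At an unadjusted p under 0.05 stood 7 of the 10 in Aβ+DFMO against Aβ and 4 in Aβ against Control (authors' deposited DESeq2 table). Of all 18783 genes, 3931 and 324 did so in the same comparisons. Of the 6875 genes whose Aβ mean lay within the range of the 10, 9.75% were called lower in Aβ+DFMO against Aβ. An unadjusted DESeq2 p under 0.05 was held there by 2442 of these 6875 genes. The median log2 ratio of the 10 genes in the authors' deposited table was −0.44 in Aβ+DFMO against Aβ (0.01 over all genes) and 0.07 in Aβ against Control (0.00 over all genes). Both comparisons share the Aβ libraries, and the calls of the first rest on 1 shallow library without a replicate, whose spread can only have been taken from the other groups. Standard errors are implied ones, the size of the log2 ratio divided by the normal deviate of its p-value.

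**Figure D1:**
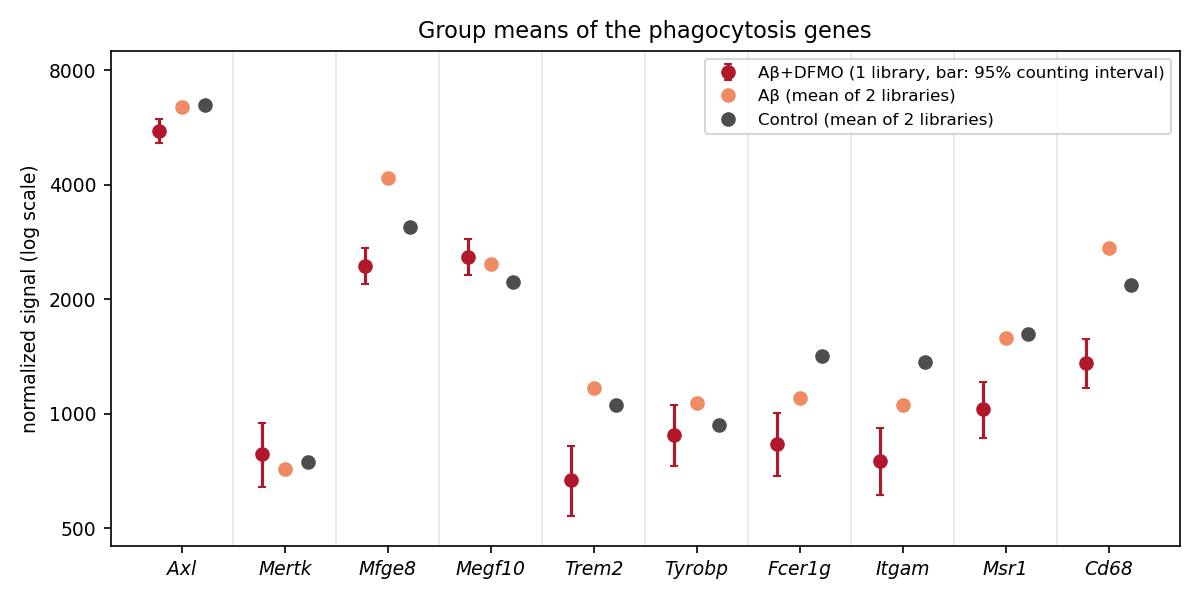
Normalized signal (log axis) of the 10 genes in Aβ+DFMO, Aβ and Control, ordered by role; points are the authors' group means, and bars on the single Aβ+DFMO library are 95% Poisson counting intervals. The Aβ+DFMO point lies below both others for 8 genes and above both for Mertk and Megf10.

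The bridging molecule Mfge8 was called in both comparisons, although its fall in Aβ+DFMO did not pass with the trend of the ratios with GC content taken out (−0.35, adjusted p = 0.281, DESeq2-based). In the authors' deposited table Mfge8, on chromosome 7 at 79133768 to 79149060 (minus strand, GRCm38), had a mean of 2444 units in Aβ+DFMO, 4173 in Aβ and 3092 in Control. It was thus highest in Aβ and lowest in Aβ+DFMO, whose counting interval of 2187 to 2724 units lay under both other means. Against Control the Aβ mean was 1.35-fold higher, with a 95% interval of 1.19 to 1.54 from the implied standard error (log2 ratio 0.43 ± 0.095, adjusted p = 0.00283 in the authors' deposited DESeq2 table). Against Aβ the Aβ+DFMO level fell to 0.586 of it, with an interval of 0.485 to 0.708 (log2 ratio −0.77 ± 0.139, adjusted p = 4.98e-06 in the authors' deposited DESeq2 table).

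The receptor tyrosine kinases and the astrocyte receptor MEGF10 did not pass in either comparison. Axl, which binds GAS6, averaged 5537 units in Aβ+DFMO, 6418 in Aβ and 6476 in Control in the authors' deposited table. Its log2 ratio of −0.21 ± 0.107 in Aβ+DFMO against Aβ had an unadjusted p of 0.0474 and an adjusted p of 0.231 in the authors' deposited DESeq2 table, and that of Aβ against Control was −0.01 ± 0.077. Mertk, the second kinase of this family, stood at 782 units in Aβ+DFMO, 714 in Aβ and 748 in Control in the authors' deposited table. The Aβ mean of Mertk lay within the Aβ+DFMO counting interval of 640 to 947 units, and so did its Control mean. An antisense gene, Gm14011, overlaps Mertk over 2435 bases in GENCODE, and the strand setting of the counting was not given in the sources used here. Megf10, an engulfment receptor that binds C1q, had 2586 units in Aβ+DFMO, 2470 in Aβ and 2226 in Control in the authors' deposited table. With intervals from the implied standard errors, changes outside 0.819 to 1.47-fold for Mertk and 0.845 to 1.30-fold for Megf10 lay beyond the 95% limits in Aβ+DFMO against Aβ; within those limits neither is shown to be unchanged.

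Trem2 and its adaptor Tyrobp had unequal ratios in Aβ+DFMO, although the difference between them was not tested and the fall of Trem2 did not pass with the GC trend taken out (−0.38, adjusted p = 0.614, DESeq2-based). Trem2, a microglial receptor for lipids, lipoproteins and Aβ, lies on chromosome 17 at 48346401 to 48354147 (plus strand, GRCm38). Its means in the authors' deposited table were 671 units in Aβ+DFMO, 1168 in Aβ and 1056 in Control, and the counting interval of the first, 539 to 824 units, lay under both others. In Aβ+DFMO it fell by 0.80 on the log2 scale against Aβ (implied standard error 0.206, adjusted p = 0.00342 in the authors' deposited DESeq2 table), and its log2 ratio in Aβ against Control was 0.15 ± 0.118. Tyrobp, which encodes the ITAM adaptor DAP12 through which TREM2 signals, had 879 units in Aβ+DFMO, 1068 in Aβ and 937 in Control in the authors' deposited table. Its Aβ+DFMO interval of 728 to 1053 units held the Control mean and ended just under the Aβ mean, and neither log2 ratio passed (−0.28 ± 0.194 in Aβ+DFMO against Aβ and 0.19 ± 0.120 in Aβ against Control, in the authors' deposited table).

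Fcer1g and Itgam had their lowest means in Aβ+DFMO and their highest in Control, without passing in either step. Fcer1g, the ITAM-bearing γ chain shared by Fc receptors, had 835 units in Aβ+DFMO, 1102 in Aβ and 1420 in Control in the authors' deposited table. Its unadjusted p was 0.00268 in Aβ against Control (log2 ratio −0.37 ± 0.122, adjusted p = 0.470) and 0.0441 in Aβ+DFMO against Aβ (−0.40 ± 0.199, adjusted p = 0.221) in the authors' deposited DESeq2 table. Itgam, the αM chain (CD11b) of complement receptor 3, had 753, 1052 and 1371 units in Aβ+DFMO, Aβ and Control in the authors' deposited table. Its log2 ratios there were −0.48 ± 0.231 in Aβ+DFMO against Aβ (unadjusted p = 0.0366) and −0.38 ± 0.150 in Aβ against Control (unadjusted p = 0.0108, authors' deposited DESeq2 table). Itgb2, the β chain that completes that receptor, had 507 units in Aβ+DFMO, 778 in Aβ and 827 in Control and stood in the authors' deposited table without passing. In GENCODE a further protein-coding gene on the same strand, Gm49368, overlaps Itgam over 55809 bases, so reads of the pair may have been split or dropped in counting.

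The scavenger receptor and the endosomal marker fell in Aβ+DFMO. Msr1 encodes scavenger receptor A, which takes up modified lipoproteins and fibrillar Aβ, and lies on chromosome 8 at 39581685 to 39642673 (minus strand, GRCm38). The authors' deposited table gave it 1028 units in Aβ+DFMO, 1581 in Aβ and 1617 in Control. It fell to 0.650 of the Aβ level (interval 0.512 to 0.826, adjusted p = 0.00934 in the authors' deposited DESeq2 table), and its log2 ratio in Aβ against Control was −0.03 ± 0.106. Cd68, the macrosialin of late endosomes and lysosomes in macrophages, lies on chromosome 11 at 69664213 to 69666153 (minus strand, GRCm38) and had 1356 units in Aβ+DFMO, 2735 in Aβ and 2178 in Control in the authors' deposited table. The Aβ+DFMO interval of 1166 to 1568 units lay well under both other means. Its level was 0.496 of that in Aβ (interval 0.401 to 0.613, adjusted p = 2.93e-08 in the authors' deposited DESeq2 table), the largest fall of the 10 genes before any correction for GC content. In Aβ against Control the log2 ratio of Cd68 was 0.33 ± 0.095, with an unadjusted p of 0.000518 and an adjusted p of 0.145 in the authors' deposited DESeq2 table.

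**Figure D2:**
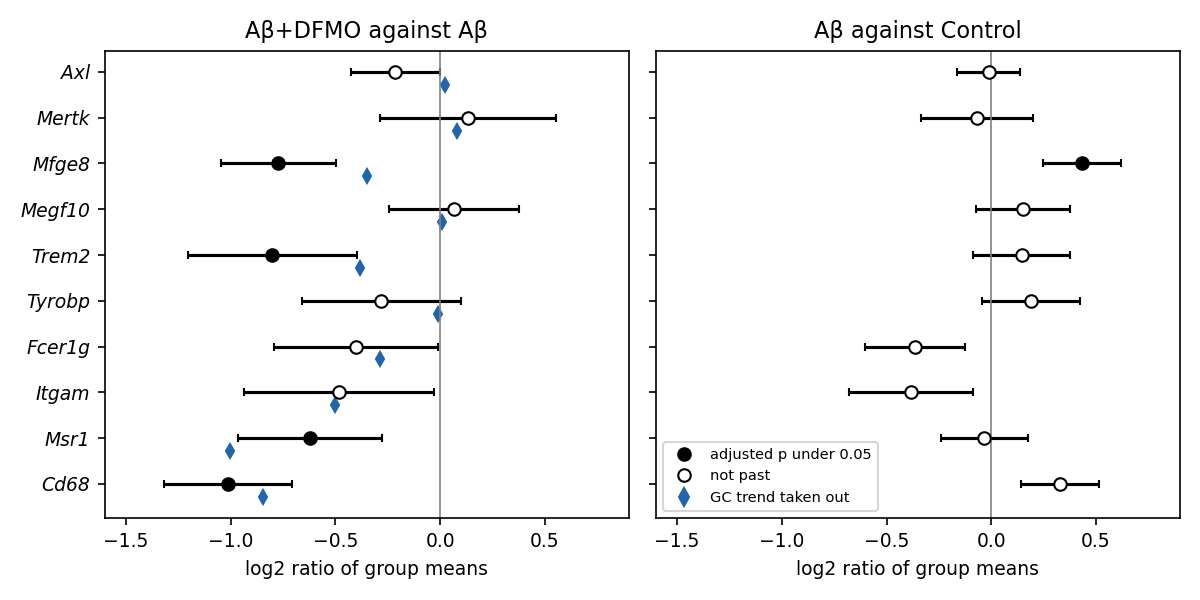
Log2 ratios of the 10 genes in both comparisons, with bars of 1.96 implied standard errors and filled circles for an adjusted p under 0.05; blue diamonds give the ratio after the trend with GC content was taken out. Of the 4 filled points of Aβ+DFMO against Aβ, those of Cd68 and Msr1 lie at −0.84 and −1.0 as diamonds, and those of Mfge8 and Trem2 move towards 0 (−0.35 and −0.38).

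Of the 4 falls, those of Cd68 and Msr1 still passed once the trend of the ratios with transcript GC content was taken out, and those of Mfge8 and Trem2 did not. Over 11660 well-measured genes (Aβ mean 200 units or more), which are not independent replicates, the log2 ratio of Aβ+DFMO against Aβ fell with GC content (Spearman's rho −0.71 across genes, against 0.12 for Aβ against Control). Mfge8 and Trem2 have GC-rich transcripts, at 57.6% and 57.5%, where the trend itself stood at −0.42 for each. With the mean GC of all transcripts in place of that of the longest, their corrected log2 ratios were −0.42 (adjusted p = 0.106) and −0.46 (adjusted p = 0.380), from the implied standard errors of the authors' DESeq2 table. Cd68, at 52.9% GC, kept a log2 ratio of −0.84 (adjusted p = 1.99e-05), and Msr1, with the lowest GC content of the set at 38.4%, moved further from 0, to −1.0 (adjusted p = 5.82e-06), again from the implied errors of the authors' DESeq2 table. So 2 of the 10 genes fell after the correction, where 1.56% of all genes with a GC value were called and 0.731% were lower. Axl and Tyrobp lay on the trend (0.02 and −0.01 after it), and Itgam, at 48.9% GC, had −0.50 (adjusted p = 0.447, DESeq2-based). The rise of Mfge8 in Aβ against Control kept its size, at 0.42 (adjusted p = 0.00380 from the implied errors of the authors' DESeq2 table).

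**Figure D3:**
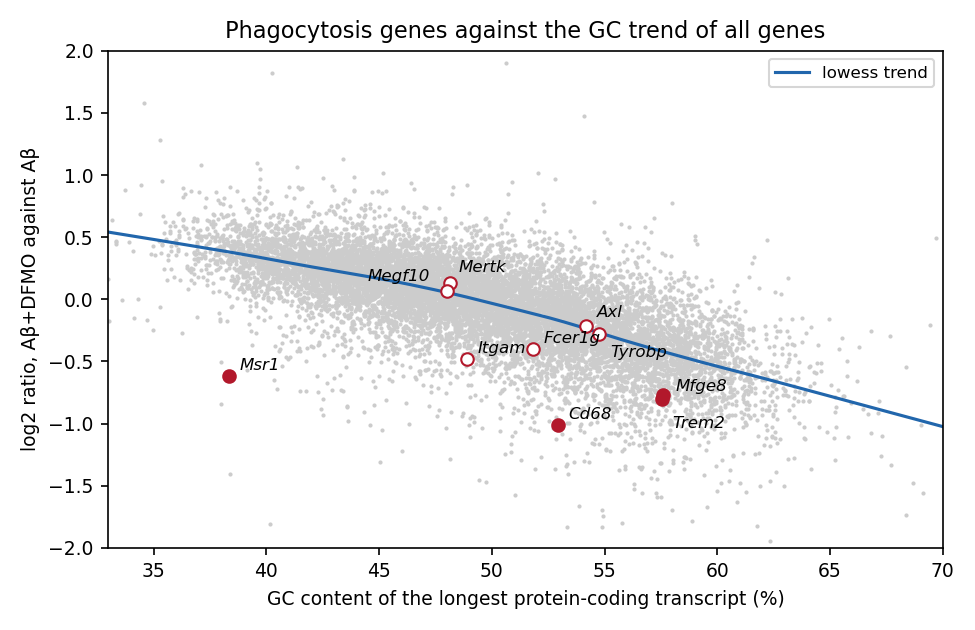
Log2 ratio of Aβ+DFMO against Aβ by transcript GC content (%) for 11660 genes (grey; points beyond the axes are not drawn) with its lowess trend (blue) and the 10 genes (red, filled where the adjusted p was under 0.05). Cd68 and Msr1 lie 0.84 and 1.0 below the line, and Axl, Tyrobp, Megf10 and Mertk lie on or just above or below it.

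Promoter sequence is shown for the called genes that the RefSeq promoter table (GRCm38.p6) held. Of the 10 genes 7 matched, and Tyrobp, Megf10 and Msr1 did not. Whether the marked letters bear on any fall was not tested. Each line gives the 250 bases before the start of the gene, 5′ to 3′ on its own strand. Capitals mark the PU box, GAGGAA or its reverse complement, the purine-rich core bound by PU.1, the myeloid factor encoded by Spi1.
Cd68 (chr11:69666171-69666420, minus strand): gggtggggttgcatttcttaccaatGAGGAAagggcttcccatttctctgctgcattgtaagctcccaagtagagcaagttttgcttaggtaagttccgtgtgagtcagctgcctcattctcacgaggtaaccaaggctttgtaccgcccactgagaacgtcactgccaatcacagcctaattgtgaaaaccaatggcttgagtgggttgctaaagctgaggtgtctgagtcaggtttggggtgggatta
Mfge8 (chr7:79149061-79149310, minus strand): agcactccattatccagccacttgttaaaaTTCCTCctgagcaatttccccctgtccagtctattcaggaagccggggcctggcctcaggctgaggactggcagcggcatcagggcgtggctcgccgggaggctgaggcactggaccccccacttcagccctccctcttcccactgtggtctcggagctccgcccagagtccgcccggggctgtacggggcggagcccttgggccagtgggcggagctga
Trem2 (chr17:48346151-48346400, plus strand): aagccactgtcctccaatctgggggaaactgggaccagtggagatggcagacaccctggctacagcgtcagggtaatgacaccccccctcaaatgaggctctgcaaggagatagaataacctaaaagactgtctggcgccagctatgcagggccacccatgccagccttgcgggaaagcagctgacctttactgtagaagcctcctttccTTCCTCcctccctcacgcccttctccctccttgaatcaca

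The PU box was found on either strand in 5 of the 7 promoters (Cd68, Mfge8, Trem2, Axl and Itgam, the last with 2 matches) and in 23.1% of all 27025 windows of the same length. In Trem2 the match began 40 bases before the start, in Cd68 225 and in Mfge8 220. The E box CACGTG, a core bound by TFEB, a regulator of lysosomal genes, is the same on both strands and does not overlap the PU box in letters. It was in none of the 7 promoters and in 6.05% of all windows. These matches are letters in a window, not shown binding. GC content of the window was 49.2% for Cd68, 65.2% for Mfge8 and 56.0% for Trem2. Spi1 itself had 89.4 units in Aβ+DFMO, resting on 12 reads, against 308 in Aβ and 386 in Control in the authors' deposited table; it fell against Aβ (log2 ratio −1.78, adjusted p = 0.00507, DESeq2) and did not pass with the GC trend taken out (−1.30, adjusted p = 0.198).

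Set against Control, the Aβ+DFMO library had lower levels of 8 of the 10 genes, a description with no test of the groups. The median log2 ratio was −0.50, where that of the well-measured genes was −0.01. The counting interval lay below 0 for 7 genes, above 0 for Megf10 (0.22, interval 0.06 to 0.37) and across 0 for Tyrobp and Mertk. Lower levels and such intervals were not counted over all genes, so these counts have no background to be read against. Itgam (−0.87) and Fcer1g (−0.77) lay lowest, followed by Cd68 (−0.68), Trem2 (−0.65) and Msr1 (−0.65). Mfge8, which rose in Aβ against Control, stood at −0.34 with an interval of −0.50 to −0.18. These intervals hold the counting error of the Aβ+DFMO library and leave out the spread of the Control libraries, the spread between cultures and the GC trend.

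Per kilobase of the longest protein-coding transcript, the levels in Aβ+DFMO ran in the order Tyrobp (1473 units per kb), Axl (1298), Fcer1g (1222), Mfge8 (1150), Cd68 (1103), Trem2 (616), Megf10 (344), Msr1 (283), Mertk (182) and Itgam (161). Neighbours in this order had overlapping counting intervals, except Cd68 and Trem2, Trem2 and Megf10, and Msr1 and Mertk. In Aβ, Cd68 (2224 units per kb) and Mfge8 (1964) stood first and Mertk (166) last, and in Control Fcer1g (2079) and Cd68 (1771) stood first and Mertk (174) last. On this scale Trem2 stood below its adaptor Tyrobp in every group, with Trem2 and Tyrobp at 616 and 1473 units per kb in Aβ+DFMO, 1074 and 1789 in Aβ, and 971 and 1569 in Control.

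The wider phagocytosis machinery was read from 85 genes in 7 lists, of which 70 were measured. In Aβ against Control 2 of the 70 rose and none fell, where 0.112% of all genes rose and 0.176% fell. The median log2 ratio of the 70 there was −0.01, in the authors' deposited table. In Aβ+DFMO against Aβ 4 rose and 14 fell, where 4.0% of all genes rose and 5.18% fell, and the median was −0.31 in the authors' deposited table. After the GC correction 1 rose and 6 fell, where 1.56% of all genes with a GC value were called and 0.731% fell. The list median in Aβ+DFMO against Aβ was −0.67 for the receptors listed as pairing with ITAM adaptors, and −0.70 after the GC correction. For the engulfment receptors it was −0.51 and −0.13 after the correction, for scavenger receptors −0.35 and −0.13, and for β2 integrins and complement receptors −0.35 and −0.21. It was −0.26 and −0.27 for signalling, −0.14 and −0.17 for bridging molecules, and −0.00 and −0.07 for don't-eat-me pairs, again uncorrected and then corrected.

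Among 10 further bridging molecules and opsonins, Lgals3 (galectin-3, an opsonin) rose in Aβ (0.73) and fell in Aβ+DFMO (−0.79, adjusted p = 7.57e-07) in the authors' deposited DESeq2 table. Gas6, the ligand of AXL and MERTK, had 5060 units in Aβ+DFMO, 7235 in Aβ and 7213 in Control; it fell in Aβ+DFMO (−0.52, adjusted p = 0.000184) in the authors' deposited DESeq2 table but stood at −0.15 (adjusted p = 0.841) without the GC trend. Pltp, a phospholipid transfer protein, fell as well (−0.47), whereas Thbs1 (thrombospondin-1, 0.50) and Anxa1 (annexin A1, 0.48, named after its value was seen) rose with DFMO, per the authors' deposited table. Pros1, which encodes protein S, did not pass (0.02 in Aβ+DFMO against Aβ in the authors' deposited table; it is named here as the other ligand of MERTK). Of these, Lgals3 (−0.50) and Thbs1 (0.53) passed again with the GC trend taken out, together with Edil3 (−0.90), an integrin bridge like Mfge8 that had not passed before. With the mean GC of all transcripts in place of that of the longest, Thbs1 passed, but Lgals3 and Edil3 did not.

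Of 14 measured phosphatidylserine and related engulfment receptors, Stab1 (stabilin-1, −1.59) and Adgrb1 (BAI1, −0.63) fell in Aβ+DFMO and none rose (authors' deposited table), and neither passed with the GC trend taken out, when Adgrb1 stood at 0.08. None passed in Aβ, where Lrp1, a large lipoprotein receptor, had the smallest p (0.63, unadjusted p = 0.181, authors' deposited DESeq2 table). Of 8 scavenger receptors, Cd36, which takes up lipids, had 1073 units in Aβ+DFMO, 2851 in Aβ and 1544 in Control in the authors' deposited table. It rose in Aβ (0.88) and fell in Aβ+DFMO (−1.41, and −1.79 with the GC trend taken out; authors' deposited table).

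The list of receptors that pair with ITAM adaptors is a loose one, as its Fcgr2b, Pirb and Clec7a do not pair with one. Of its 9 measured genes, Fcgr3 alone fell in Aβ+DFMO, to 564 units, against 1087 in Aβ and 1075 in Control (log2 ratio −0.95, adjusted p = 0.000887, authors' deposited DESeq2 table). It passed again with the GC trend taken out (−0.95, adjusted p = 0.00262, from the DESeq2 errors). Clec7a (dectin-1), with the smallest p of this list in Aβ against Control, did not pass (0.40, adjusted p = 0.154, authors' deposited DESeq2 table). Of 6 β2 integrins and complement receptors, C3ar1 (−0.63) and C5ar1 (−0.99), receptors of the anaphylatoxins C3a and C5a, fell in Aβ+DFMO and Cr1l (0.53), a complement regulator, rose in the authors' deposited table. C3ar1 and C5ar1 passed again with the GC trend taken out, at −0.86 and −0.99, and Cr1l did not; with the mean GC of all transcripts C5ar1 missed the threshold (adjusted p = 0.0517, DESeq2-based). None of these 6 passed in Aβ; Itgal, the αL chain, came nearest (−0.72, adjusted p = 0.901, authors' deposited DESeq2 table).

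Of 17 engulfment signalling genes, Plcg2 (−1.17), Abca7 (−1.06), Rac2 (−1.36) and Inpp5d (−0.88) fell in Aβ+DFMO and Gulp1 (0.57) rose in the authors' deposited table. PLCG2 and the phosphatase SHIP1, encoded by Inpp5d, act below TREM2, and RAC2 moves actin in blood cells. Between 15 and 38 reads lay behind each of these falls, and none of the 5 genes passed with the GC trend taken out. In Aβ, Inpp5d came nearest (−0.58, adjusted p = 0.109, authors' deposited DESeq2 table). Of 6 genes of don't-eat-me pairs, Sirpa, the receptor of CD47, fell in Aβ+DFMO (−0.54, authors' deposited table) and had −0.30 after the GC correction, not past the threshold, and the ratio of Cd47 itself, 0.13, was not past it either.

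**Figure D4:**
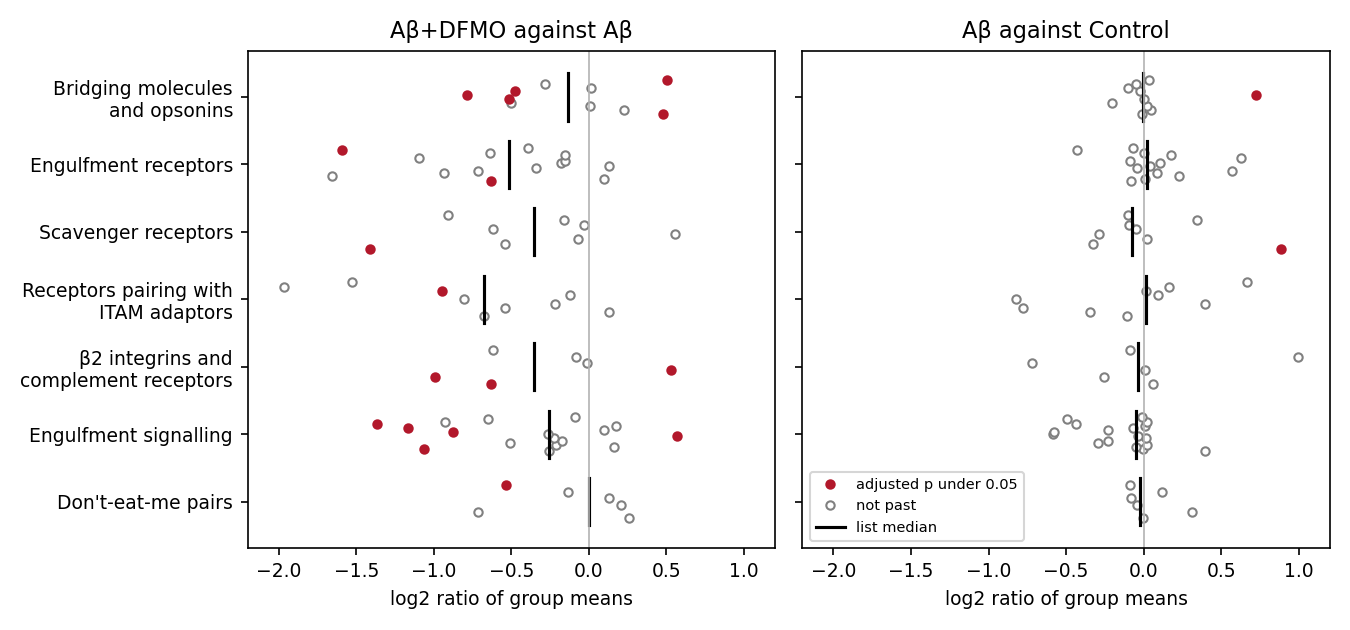
Log2 ratio of each measured gene of the 7 related lists in both comparisons (points, red for an adjusted p under 0.05), with the median of each list as a black bar. In Aβ against Control the red points are Lgals3 and Cd36; in Aβ+DFMO against Aβ, 14 red points lie left of 0 and 4 right of it.

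Markers of microglia and macrophages had negative median log2 ratios in both comparisons, whereas that of the 10 genes was 0.07 in Aβ against Control. Of 18 such markers, 1 rose and 8 fell in Aβ against Control (median −0.57), where 0.176% of all genes fell, and none rose and 3 fell in Aβ+DFMO against Aβ (median −0.30), in the authors' deposited table. Their summed level was 45103 units in Aβ+DFMO, 58481 in Aβ and 61750 in Control, and the most abundant of them was Lyz2 (lysozyme), at 23386, 33224 and 25844 units. None of the 18 was at 0, and the lowest in Aβ+DFMO were Aif1 (52.2, 52.9 and 104 units in Aβ+DFMO, Aβ and Control) and Tmem119 (67.1, 82.5 and 208). Csf1r, on which microglia depend, had 981 units in Aβ+DFMO, 1418 in Aβ and 2463 in Control, a fall in Aβ (−0.80, adjusted p = 1.82e-07) in the authors' deposited DESeq2 table. Markers of other lineages moved with DFMO too: 5 of 12 astrocyte markers fell (summed level 137145 units in Aβ+DFMO, 174020 in Aβ and 174516 in Control), as did 7 of 9 oligodendrocyte markers (21679, 40235 and 40163 units), per the authors' deposited table, where 5.18% of all genes fell. With the GC trend taken out, 3 astrocyte, 3 oligodendrocyte and 1 of the microglia and macrophage markers fell, where 0.731% of all genes did. Of 5 neuronal markers 1 rose and 1 fell (1 and 0 after the GC correction), where 4.0% of all genes rose. Of 7 fibroblast and mural markers 1 rose (2 after the GC correction), and of 3 endothelial markers none passed. The 6 markers of monocytes and other blood cells were not analysed here. No marker of these other lineages was called in Aβ against Control. The part of any of these lineages in the values of the 10 genes was not tested. In the authors' deposited pathway table, the set Fc gamma R-mediated phagocytosis had the smallest p-value of 242 sets in both comparisons (ratio 0.988, adjusted p = 2.15e-38 in Aβ+DFMO against Aβ; ratio 0.984, adjusted p = 1.87e-08 in Aβ against Control). The test behind that p-value, unlike the DESeq2 test of the genes, was not named in the sources used here.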

How the data were processed

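Polyadenylated RNA of 5 libraries was sequenced as read pairs. The submitters' processing notes name STAR 2.7.3a, Partek, DESeq2 and FastQC and the builds mm10 and GRCm39, without roles; counting and filtering steps were not given in the sources used here. Per the file headers, the authors deposited for each gene a normalized signal (least-squares group means), the log2 ratio, and p-values with step-up adjustment; these equal Benjamini-Hochberg values over all 18783 genes. The authors also deposited a ratio and p-values per gene set, per the file headers, and reads per library. The design had planned edgeR on counts per library, with the authors' DESeq2 p-values as fallback; the fallback was used because the deposited values are group means.

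Of 7239 genes below 200 units in the Aβ+DFMO library, 80.2% were whole multiples of the worth of a read. Implied standard errors assume a Wald test. GC content and length came from the longest protein-coding transcript in GENCODE M21 (GRCm38), matched by symbol for 18459 genes; positions are from that annotation, which may not be the build used for counting. The GC trend was a lowess curve (span 0.3, statsmodels 0.14.6, Python 3.11.15) and was also run on simulated data. That simulation used a straight trend and errors drawn from the same implied standard errors. It therefore cannot show how well the correction works on these data. The 10 genes and all lists were chosen with earlier results of these data known. The named genes were all 10, up to 4 called genes per list and comparison by smallest p, and the gene with the smallest p where none passed. Alternatives were other thresholds, a filter at a mean of 100 units, recentring, GC correction and pseudocounts.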

Additional observations from a re-analysis of the deposited data

How the results depend on the processing

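Both comparisons gave the same count of called genes among the 10 at an adjusted p under 0.01 or 0.10, over genes with a mean of at least 100 units alone, and after recentring on the median of well-measured genes (Aβ mean 200 units or more). With the GC trend taken out, the count in Aβ+DFMO against Aβ was 2 in place of 4, with either GC measure; the mean GC content of all transcripts was added after seeing the data. Trem2 and Mfge8 were the genes lost, at −0.46 and −0.42 with that measure. Of the 70 related genes, 18 were called in Aβ+DFMO against Aβ, and this became 8 at an adjusted p under 0.01, 7 with the GC trend taken out and 5 with the mean GC of all transcripts. All genes together had 1724 calls, 288 with the GC trend taken out and 355 with the mean GC. No sign turned among the called values of the 10 genes; of the related genes, Adgrb1 had −0.63 uncorrected, 0.08 with the GC trend taken out and 0.05 with the mean GC. Of the 7 related genes that passed with the GC trend taken out, Lgals3 (−0.37, adjusted p = 0.158, DESeq2-based), Edil3 (adjusted p = 0.0665, DESeq2-based) and C5ar1 (adjusted p = 0.0517, DESeq2-based) did not with the mean GC, whereas Cd24a did (0.34). Log2 ratios of Aβ+DFMO against Control stayed within their counting intervals under pseudocounts of 1, 10 and 100 units and recentring. No paired analysis was possible because the values used are group means; for the same reason leaving out a library and count-based tools were not run. Depth limits the Aβ+DFMO library: 90 to 743 reads lay behind each of the 10 genes.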
